A study of Mus musculus with 24 samples.

Results

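The genes described here are Trp53, which encodes the transcription factor p53, and 9 genes of p53 signalling and cell-cycle arrest: Mdm2, Trp53inp1, Cdkn1a, Ccng1, Cdkn2a, Zmat3, Phlda3, Sesn1 and Eda2r. They were taken by symbol from the deposited gene table of dispersed mouse islet cells. All 10 were found among its 41549 genes, and 9 of them had enough counts to be tested among 15916 genes, while Cdkn2a did not. The libraries came from islet cells of wild-type mice, dissociated, transfected with 50 pmol of an antisense oligonucleotide (ASO) and then cultured for 48 h with palmitate (PA) or with its vehicle. Each of 4 groups held 6 stranded mRNA libraries. Ctr BSA cells received the control ASO and 0.75% bovine serum albumin (BSA), and Ctr PA cells received the control ASO and 0.5 mM PA. The αGlu BSA and αGlu PA cells were treated in the same way after transfection with αGlu, a locked nucleic acid inhibitor of the 5'tRF Glu(CTC), a fragment cut from a glutamate tRNA. All cells were transfected, and none of the groups was left without an ASO. The target of αGlu is a small RNA and is not read by mRNA libraries, so its inhibition could not be checked here. The study describes the libraries of a group as independent experiments, and says that the groups of a replicate shared their cells' source, without saying which libraries belong together. The labels of these libraries give no age or sex of the mice. The study describes its wild-type islet donors as C57BL/6 mice of both sexes within a stated age range. It does not give the age or sex behind each library. The labels place 3 libraries of every group in batch 1 and 3 in batch 2, and do not say what a batch is.

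p53 is a transcription factor that is kept at low levels by Mdm2, a ubiquitin ligase whose gene p53 itself switches on. When DNA damage or other stress stabilises p53, it raises a set of target genes that stop the cell cycle, repair DNA, adjust metabolism or start apoptosis. Its best known arrest target is p21, the product of Cdkn1a, which inhibits cyclin-dependent kinases, and in β-cells p21 and the Cdkn2a products are known for restraining the slow turnover of these cells.

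p53 binds a response element made of 2 units of 10 bases with up to 13 bases between them, and RefSeq promoter windows (250 bases before to 50 after each annotated start, GRCm38.p6) held matches for 5 members. They are shown because these windows are among the places where the members listed as p53 targets may carry the element. The matches were looked up after the expression values had been seen. Of 32851 windows of this length, 0.627% held 2 units with at most 1 mismatch in all, and 8.36% held at least 1 exact unit. The element is nearly its own reverse complement, so each match counts for both strands. Capitals mark the matched bases, and each stretch is given 5′ to 3′ on the strand of its gene. The Cdkn1a stretch chr17:29090923-29090952 (+ strand) and the Ccng1 stretch chr11:40755457-40755486 (− strand) held 2 adjoining units with 1 mismatch. They began 51 and 195 bases before the annotated start of their own window.
Cdkn1a: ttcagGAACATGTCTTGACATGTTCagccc
Ccng1: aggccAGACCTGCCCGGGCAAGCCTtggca
Single exact units were found in Cdkn1a at chr17:29090896-29090925 (+), in Mdm2 at chr10:117710925-117710954 (−), in Trp53 at chr11:69580274-69580303 (+) and in Sesn1 at chr10:41887256-41887285 (+).
Cdkn1a, single unit: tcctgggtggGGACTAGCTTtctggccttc
Mdm2: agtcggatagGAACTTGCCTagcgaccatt
Trp53: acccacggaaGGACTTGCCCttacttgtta
Sesn1: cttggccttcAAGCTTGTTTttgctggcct
The table held 11 windows for 8 members, of which 5 had a unit and 2 the paired element. The letters were not found in the windows of Phlda3, Eda2r and Cdkn2a. Cdkn1a and Sesn1 each had another annotated start, with windows at chr17:29093519-29093818 and chr10:41810324-41810623, and these held no match. The matches of these genes lay in the windows chr17:29090729-29091028 and chr10:41887189-41887488. Sequence outside the windows was not searched, so an element there would have been missed. Zmat3 and Trp53inp1 were not in the promoter table. A match is a description of the sequence, since the libraries measured RNA and not binding.

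Sequencing depth was 18214719 to 35001979 counts per library (median 26701201.5). The biological coefficient of variation between libraries was 15.4%. The Ctr BSA library 1 had the lowest total and the lowest TMM factor, 0.852 against a highest of 1.06. The 8 β-cell markers (Ins1, Ins2, Iapp and others) summed to between 83629.6 and 151349 CPM (counts scaled to the size of the library), and every acinar, ductal, macrophage, endothelial, fibroblast and glial marker list was detected as well. None of these marker genes was at 0 throughout a group. Cpt1a, the gene of an enzyme for mitochondrial fatty-acid entry, is known to be raised by PA. It was 2.18 higher on the log2 scale in PA than in BSA in Ctr cells and 2.25 higher in αGlu cells. In bulk RNA of this kind, fewer cells of a type and less RNA per cell cannot be told apart.

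Levels per transcript length were compared between genes with the deposited TPM, which the authors scaled by transcript length and library size. Ccng1 stood highest at 270.0 ± 43.7 TPM (SD, n = 24), followed by Cdkn1a at 195 ± 61.6 and Trp53inp1 at 128 ± 41. Mdm2 at 73.2 ± 12.5, Phlda3 at 47.5 ± 19.2 and Trp53 at 42.9 ± 9.99 lay in the middle. Zmat3 at 28.6 ± 5.20, Sesn1 at 28.2 ± 5.25 and Eda2r at 5.80 ± 3.17 followed, and Cdkn2a was lowest at 0.541 ± 0.428. Each gene stood above the next of this order in 23 or 24 of the 24 libraries, with the exception of 2 neighbouring pairs that did not separate beyond their spread. Phlda3 was above Trp53 in 16 libraries, and Zmat3 was above Sesn1 in 16. Ccng1 was at the 98.3th percentile of all tested genes by TPM, and Eda2r was at the 36.8th. The deposited RPKM, another scaling by length and depth, gave the same ranks.

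**Figure D1:**
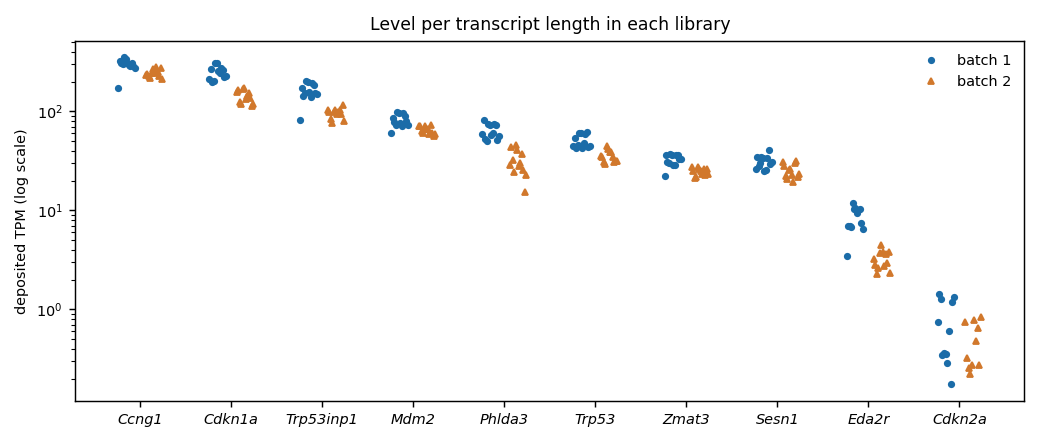
Deposited TPM (log axis) of the 10 genes in each library, ordered by their mean over 24 libraries, with circles for batch 1 and triangles for batch 2. Ccng1 and Cdkn1a lie at the top, Cdkn2a lies near or below 1 TPM, and the 3 libraries without a Cdkn2a count cannot be drawn on a log axis.

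Exposure to PA lowered 6 of the 9 tested genes in Ctr cells: Phlda3, Cdkn1a, Sesn1, Trp53, Mdm2 and Zmat3. The same comparison in αGlu cells lowered 6 genes, again these. No member rose in either comparison. The falls were small, between 10.5% and 30.5% in Ctr cells. Over all genes tested, 14.5% were called lower in Ctr PA and 14.2% in αGlu PA. The median log2 fold change of the 9 members was -0.21 in Ctr and -0.26 in αGlu cells, beside 0.01 and 0.01 over all genes. Calls here are Benjamini-Hochberg adjusted p-values below 0.05 over all genes in edgeR's quasi-likelihood test with a batch term, without a limit on the fold. With the rule of the study, a fold above 2 and an unadjusted p below 0.05, which 5.91% and 5.57% of all genes met, no member was called in either comparison. Over both ASOs together, 12 libraries against 12, the same 6 of 9 genes fell beside 22% of all genes, no member rose beside 23.4%, and 0 passed the rule of the study beside 5.75%. This comparison rests on the same libraries as those within each ASO.

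**Figure D2:**
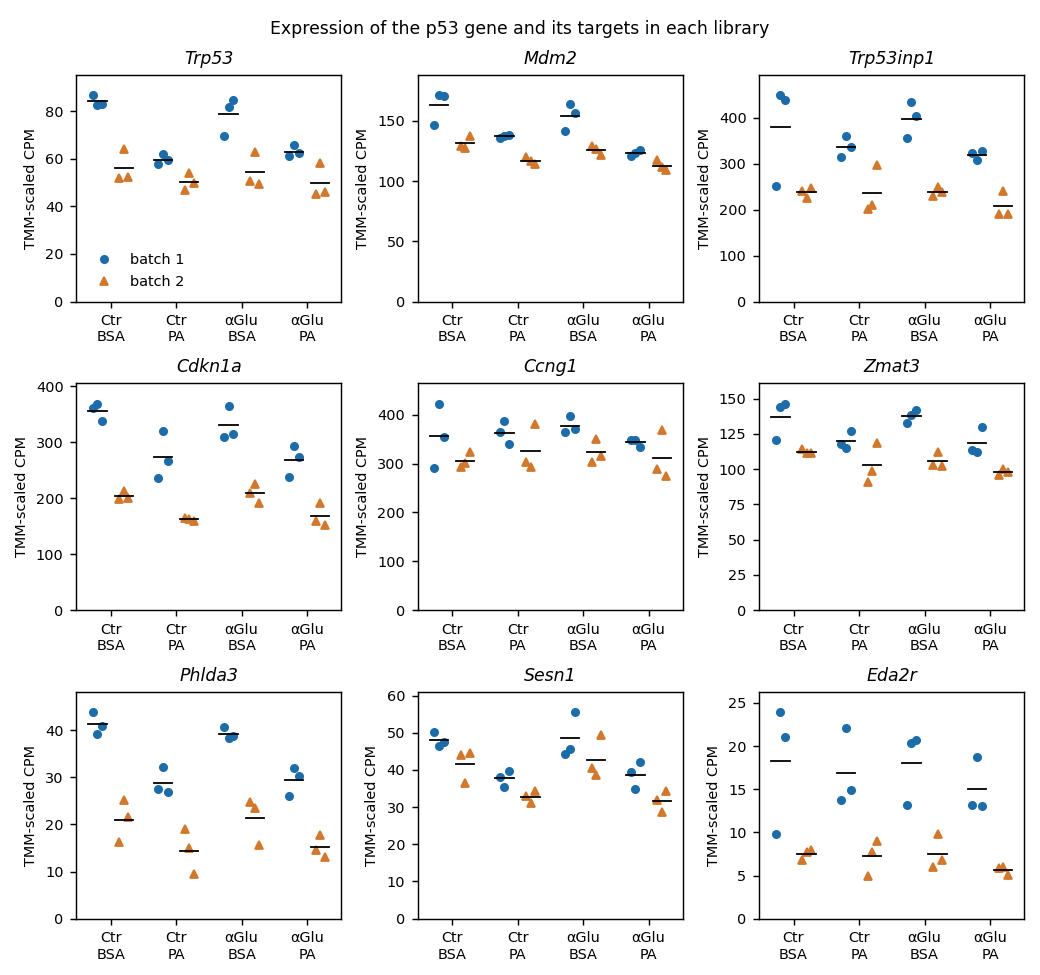
TMM-scaled CPM of the 9 tested genes in each library, by group, with circles for batch 1, triangles for batch 2 and a bar for the mean of the 3 libraries of a batch. Sesn1, Mdm2 and Cdkn1a in Ctr cells show PA libraries below the BSA libraries in both batches, and all 9 genes lie lower in batch 2.

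Trp53 (ENSMUSG00000059552, chr11:69580359-69591873, + strand, GRCm38), the gene of p53 itself, was lower in PA. In batch 1 its level was 86.7, 82.7 and 83 CPM in Ctr BSA and 57.7, 61.8 and 59.4 CPM in Ctr PA. In batch 2 it was 51.7, 64 and 52.3 CPM in Ctr BSA and 46.8, 53.9 and 49.98 CPM in Ctr PA. The groups were apart in batch 1 and overlapped in batch 2. In αGlu cells the lowest, median and highest level was 49.4, 66.3 and 84.5 CPM in BSA and 45.3, 59.6 and 65.8 CPM in PA. The log2 fold change was -0.33 ± 0.08 (SE, adjusted p = 0.00357) in Ctr cells and -0.22 ± 0.08 (adjusted p = 0.0421) in αGlu cells. Over both ASOs it was -0.42 within batch 1 and -0.14 within batch 2. The test of that difference gave 0.27 (95% interval 0.05 to 0.49, unadjusted p = 0.0200, adjusted p = 0.661). The fall in αGlu cells lost its call when any 1 of 8 libraries was left out, all of them αGlu libraries (4, 6, 8, 10, 12, 16, 18 and 24), with values between -0.22 and -0.18, and without a filter on low counts (adjusted p = 0.0512).

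Mdm2 (chr10:117688875-117710758, − strand), the ligase that marks p53 for degradation, fell with the smallest standard error of the members. The 3 Ctr BSA libraries of batch 1 held 147, 171 and 170.3 CPM and the 3 Ctr PA libraries 135, 138 and 138 CPM. In batch 2 the values were 129, 128 and 137 CPM in Ctr BSA and 119.6, 117 and 114 CPM in Ctr PA. No PA library reached a BSA library of its batch on the TMM-scaled CPM. In the deposited TPM the Ctr BSA library 1 was at 60.4, below the 78.8, 76.5 and 80.2 of Ctr PA in batch 1. The αGlu cells showed the same separation, with 141, 164 and 157 CPM in BSA against 120.4, 124 and 126 CPM in PA in batch 1, and 129, 127 and 121 against 117, 111 and 109.5 in batch 2. PA gave a log2 fold change of -0.21 ± 0.05 in Ctr (adjusted p = 0.00157) and -0.24 ± 0.05 in αGlu cells (adjusted p = 4.50e-04).

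Trp53inp1 (chr4:11156431-11174379, + strand) encodes a nuclear protein that assists p53 and takes part in autophagy. Its lowest, median and highest level was 226, 250.02 and 449 CPM in Ctr BSA and 201, 305 and 360.4 CPM in Ctr PA. In αGlu cells it was 229, 303 and 435 CPM in BSA and 191, 275 and 328 CPM in PA. The groups overlapped in Ctr cells and in batch 2 of αGlu cells. In batch 1 of αGlu cells the BSA libraries, at 356, 435 and 404 CPM, lay above the PA libraries, at 323, 308 and 328 CPM. The log2 fold change did not pass the test in Ctr (-0.09 ± 0.11, adjusted p = 0.560), in αGlu cells (-0.26 ± 0.11, adjusted p = 0.0764) or over both ASOs (-0.18 ± 0.08, adjusted p = 0.0652). Without the Ctr BSA library 1 the value over both ASOs was -0.22 and was called (adjusted p = 0.00512), and omission of the αGlu PA library 20 or the Ctr PA library 23 also gave a call (-0.20 and -0.22). Leaving out any of these 3 libraries gave a call in αGlu cells as well (adjusted p between 0.0240 and 0.0472).

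Cdkn1a (ENSMUSG00000023067, chr17:29090976-29100727, + strand) encodes the kinase inhibitor p21, the arrest arm of the pathway, and carries the element printed first above. In batch 1 Ctr BSA libraries held 362, 369 and 338 CPM, against 237, 320.1 and 267 CPM in Ctr PA. In batch 2 they held 199, 213 and 199.7 CPM, against 164, 164 and 159.5 CPM in Ctr PA. Every PA library lay below every BSA library of its batch on the TMM-scaled CPM. In the deposited TPM the Ctr BSA library 1, at 213, lay below the Ctr PA libraries 7 and 11, at 255 and 222. In αGlu cells the values were 309.9, 366 and 315 CPM in BSA against 239, 294 and 274 CPM in PA in batch 1, again without overlap, and 209, 226 and 191.7 against 160.2, 191.8 and 153 in batch 2, where 1 PA library stood level with the lowest BSA library. The log2 fold change was -0.35 ± 0.07 in Ctr (adjusted p = 5.55e-04) and -0.31 ± 0.07 in αGlu cells (adjusted p = 0.00211). Over both ASOs it was -0.33 ± 0.05 (adjusted p = 9.45e-06), with -0.35 within batch 1 and -0.32 within batch 2. An exon of the gene model AC167363.2 overlaps Cdkn1a on the other strand, and this gene is not in the table.

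Ccng1 (chr11:40748552-40755311, − strand), the gene of cyclin G1, which acts with Mdm2 and a phosphatase in feedback on p53, was the most abundant member and did not pass the test. Its lowest, median and highest level was 292, 312 and 423 CPM in Ctr BSA and 292, 352 and 387 CPM in Ctr PA. In αGlu cells it was 304, 357 and 397 CPM in BSA and 275, 341 and 368 CPM in PA. The groups overlapped, with a log2 fold change of 0.06 ± 0.08 in Ctr (adjusted p = 0.620) and -0.10 ± 0.08 in αGlu cells (adjusted p = 0.396). Its 95% interval over both ASOs ran from -0.14 to 0.10, so a fall as large as that of Cdkn1a lay outside it. Ccng1 carries the other paired element printed above.

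Cdkn2a (chr4:89274471-89294653, − strand) encodes the arrest protein p16Ink4a and the Mdm2 antagonist p19Arf from overlapping transcripts, which gene counts cannot tell apart. It had 0 to 16 counts per library and 145 over all 24 libraries, too few for the fit. The lowest, median and highest level was 0, 0.115 and 0.283 CPM in Ctr BSA and 0, 0.232 and 0.567 CPM in Ctr PA. In αGlu cells it was 0.0697, 0.136 and 0.315 CPM in BSA and 0.114, 0.286 and 0.538 CPM in PA. The groups overlapped, and two-sided exact permutation tests of the mean CPM, 6 libraries against 6, gave p = 0.173 in Ctr and p = 0.169 in αGlu cells, both 0.346 after adjustment over 4 comparisons. αGlu against Ctr gave exact p = 0.455 in BSA and 0.799 in PA. No difference in Cdkn2a was detected in these tests, which have no batch term.

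Phlda3 (chr1:135766119-135769136, + strand) encodes a small protein that blocks the kinase Akt at the membrane, and it had the largest fall of the 9 members in both ASO groups. In Ctr cells of batch 1 it was at 43.8, 39.2 and 40.8 CPM in BSA and at 27.5, 32.2 and 26.9 CPM in PA. In batch 2 it was at 16.3, 25.2 and 21.6 CPM in BSA and at 19, 15 and 9.37 CPM in PA, where 1 PA library exceeded 1 BSA library. In αGlu cells the lowest, median and highest level was 15.6, 31.6 and 40.7 CPM in BSA and 13, 21.8 and 32 CPM in PA. The log2 fold change was -0.52 ± 0.13 in Ctr (adjusted p = 0.00354) and -0.46 ± 0.13 in αGlu cells (adjusted p = 0.0100). Within batches it was -0.48 and -0.51 over both ASOs.

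Sesn1 (chr10:41809935-41908424, + strand), the gene of sestrin 1, which holds back the growth kinase mTORC1, separated the groups in all 4 sets of libraries. In Ctr cells of batch 1 the levels were 50.3, 46.4 and 47.6 CPM in BSA and 38, 35.4 and 39.8 CPM in PA. In batch 2 they were 44.1, 36.4 and 44.5 CPM in BSA and 33, 31.1 and 34.3 CPM in PA. The αGlu cells held 44.3, 45.6 and 55.5 CPM in BSA and 39.3, 34.9 and 42 CPM in PA in batch 1, and 40.4, 38.5 and 49.4 against 31.9, 28.8 and 34.2 in batch 2. Every PA library was below the BSA libraries of its batch on the TMM-scaled CPM. In the deposited TPM the Ctr BSA library 1, at 26.4, lay below the Ctr PA libraries 3 and 11, at 28.2 and 29.4. The log2 fold change was -0.35 ± 0.07 in Ctr (adjusted p = 7.17e-04) and -0.38 ± 0.07 in αGlu cells (adjusted p = 3.10e-04). Over both ASOs Sesn1 had the smallest adjusted p of the members, 2.84e-06.

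Zmat3 (chr3:32334792-32366014, − strand), an RNA-binding zinc finger protein, fell by the smallest amount of the called genes. Its lowest, median and highest level was 111, 117 and 146 CPM in Ctr BSA and 90.9, 117 and 127 CPM in Ctr PA. In αGlu cells it was 102, 123 and 142 CPM in BSA and 95.5, 106 and 129.6 CPM in PA. The groups overlapped in Ctr cells, while in αGlu cells each batch was apart. On the log2 scale the fold change was -0.16 ± 0.06 in Ctr (adjusted p = 0.0438) and -0.17 ± 0.06 in αGlu cells (adjusted p = 0.0350). The call in Ctr cells was lost without any 1 of 14 libraries (2, 3, 5, 7, 9, 13, 15, 16, 17, 18, 19, 20, 21 and 24), where its values lay between -0.16 and -0.13. The call in αGlu cells was lost without any 1 of 8 libraries (2, 4, 6, 8, 10, 16, 18 and 24). Both calls were also lost without a filter on low counts (adjusted p = 0.0811 in Ctr and 0.0617 in αGlu cells), and that in Ctr cells in a fit of the compared groups alone (0.121). Over both ASOs the value was -0.16 (adjusted p = 0.00251).

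Eda2r (chrX:97333840-97377216, − strand), a death-domain-free receptor of the TNF receptor family for the ligand EDA-A2, was the least expressed tested member and had the widest errors. Its lowest, median and highest level was 6.83, 8.85 and 23.9 CPM in Ctr BSA and 4.97, 11.4 and 22.1 CPM in Ctr PA. In αGlu cells it was 6.03, 11.5 and 20.7 CPM in BSA and 5.08, 9.53 and 18.7 CPM in PA. The groups overlapped and no test was passed, with log2 fold changes of -0.09 ± 0.18 in Ctr (adjusted p = 0.744) and -0.34 ± 0.19 in αGlu cells (adjusted p = 0.184). Without the Ctr BSA library 1 the value over both ASOs was -0.28 (adjusted p = 0.0444), against -0.21 with it (adjusted p = 0.189).

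Counted without any model on the TMM-scaled CPM, 3 members had PA libraries that all lay below the BSA libraries of their batch in Ctr cells: Sesn1, Mdm2 and Cdkn1a. Over all genes this held for 6.25%. In αGlu cells it held for 3 members, Sesn1, Mdm2 and Zmat3, beside 9.73% of all genes. This count was chosen after the values had been seen, and it depends on the scaling. In the deposited TPM none of the 3 genes separated in Ctr cells, because of the Ctr BSA library 1 with the values given above, and Zmat3 overlapped in batch 2 of αGlu cells, where Sesn1 and Mdm2 still separated in both batches.

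None of the 9 tested genes passed the test between αGlu and Ctr cells, either in BSA or in PA. Over all genes 0.0% were called by edgeR's quasi-likelihood test in BSA, 0.0% in PA and 0.0% for the difference between both PA responses. Over both treatments 0.239% were called, and again no member. DESeq2 called 8 genes in BSA, 30 in PA, 0 for the difference and 90 over both treatments, none of them a member. The log2 fold changes of the members, αGlu against Ctr, lay between -0.07 and 0.08 in BSA and between -0.25 and 0.04 in PA. The smallest unadjusted p belonged to Mdm2, with -0.10 in PA (adjusted p = 0.993) and -0.09 ± 0.03 over both treatments (adjusted p = 0.918). In PA and over both treatments it was the only member below 0.05 unadjusted, beside 538 and 620 genes of all those tested. In BSA and for the difference between the responses it was 0 members, beside 461 and 332 genes. For Cdkn1a the 95% interval over both treatments was -0.12 to 0.09, and for Trp53 it was -0.14 to 0.10. For Eda2r it was wider, -0.40 to 0.14. The differences between the PA responses lay between -0.24 (Eda2r) and 0.11 (Trp53), with 95% intervals reaching from -0.78 to 0.45. These comparisons share their libraries with the PA comparisons. Of the 8 Schwann cell and enteric glia markers 6 were lower in αGlu than in Ctr cells over both treatments (median -2.85), with sums of 10.8 to 98.9 CPM in Ctr BSA, 14.3 to 72.7 in Ctr PA, 7.72 to 28.03 in αGlu BSA and 8.22 to 13.5 in αGlu PA.

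**Figure D3:**
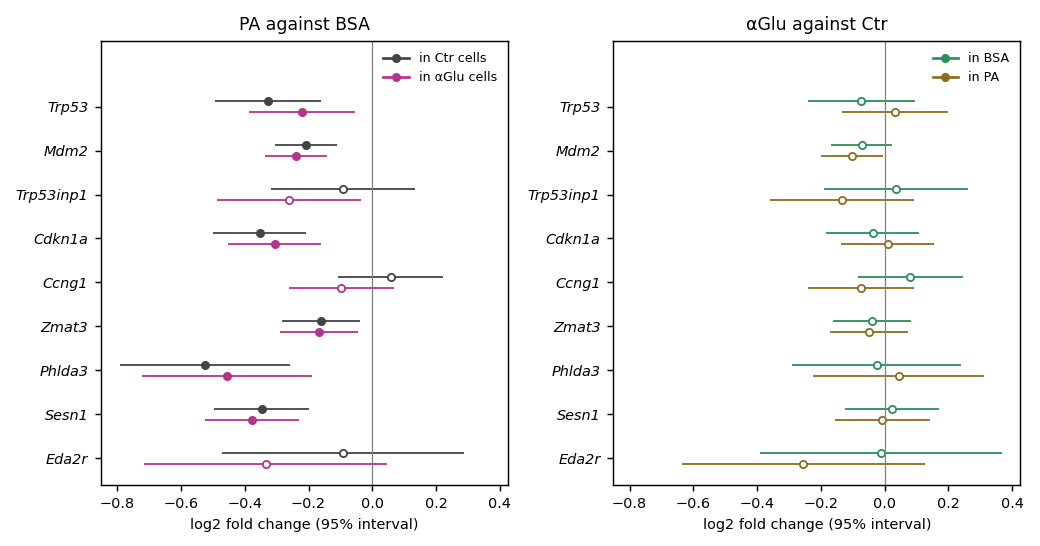
Log2 fold changes of the 9 tested genes with 95% intervals, PA against BSA on the left and αGlu against Ctr on the right, with filled points for an adjusted p below 0.05. Points at left are filled for 6 genes in each ASO group, and none is filled at right.

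All 9 tested genes were lower in batch 2 than in batch 1. Of all genes, 25.4% were called lower in batch 2 and 26.1% higher. Eda2r had a log2 fold change of -1.30, Phlda3 of -0.95, Cdkn1a of -0.72 and Trp53inp1 of -0.64. Trp53 followed with -0.43, Zmat3 with -0.29, Mdm2 with -0.24, Sesn1 with -0.22 and Ccng1 with -0.19, where Ccng1 had the largest adjusted p (0.00780). By the rule of the study 1 member was called, Eda2r, beside 6.38% of all genes. No member passed the test of a PA response that differs between the batches, beside 0.0565% of all genes. At an unadjusted p below 0.05 it was 1 member, Trp53, beside 983 genes, and DESeq2 called 43 genes and no member. The acinar markers moved with the batches: all 8 were lower in batch 2, with a median log2 fold change of -4.48, and their sum ran from 3058 to 22670.2 CPM in batch 1 and from 222 to 601 CPM in batch 2. Of the 8 ductal markers 6 were lower, of the 8 α, δ and PP cell markers 7, and all 8 β-cell markers were higher with a median of 0.54. The part of these cells in the levels of the 9 genes was not tested.

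**Figure D4:**
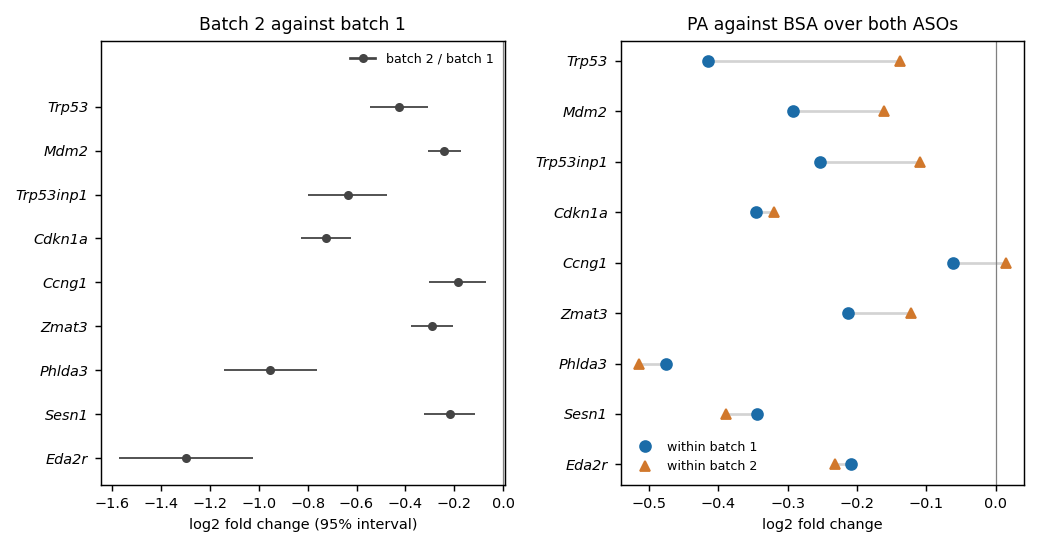
Log2 fold changes of the 9 tested genes, batch 2 against batch 1 with 95% intervals on the left, and PA against BSA over both ASOs within each batch on the right. All 9 intervals at left lie below 0, and the PA values at right lie below 0 in both batches for every gene other than Ccng1, which was at 0.02 in batch 2.

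Markers of other cells also moved with PA. All 7 tested fibroblast and stellate cell markers were lower over both ASOs, with a median log2 fold change of -2.48, and their sum ran from 69.6 to 421 CPM in Ctr BSA, 6.89 to 43.4 in Ctr PA, 40.7 to 934 in αGlu BSA and 4.52 to 159.7 in αGlu PA. All 8 acinar markers fell as well (median -1.12), as did 5 of 8 ductal and 2 of 8 endothelial markers, beside 22% of all genes. Of the 8 macrophage markers 4 fell over both ASOs. Within the ASO groups 6 fell in Ctr cells (median -2.11), beside 14.5% of all genes, and 1 in αGlu cells (median -0.06), beside 14.2%. The difference between these responses was called for 0 of the macrophage markers. Over both ASOs, where 23.4% of all genes rose and 22% fell, 3 of the 8 β-cell markers rose and 3 fell. Of the 8 α, δ and PP cell markers 5 fell. No gene of these lists was at 0 in a whole group. Their part in the falls of the 6 genes was not tested. Within batch 2 alone, the log2 fold changes over both ASOs were -0.51 for Phlda3, -0.39 for Sesn1 and -0.32 for Cdkn1a. They were -0.16 for Mdm2, -0.14 for Trp53 and -0.12 for Zmat3. The last 2 were not called in batch 2 alone (adjusted p = 0.270 and 0.142), where the value of Trp53 compares with -0.27 over both batches.

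The wider pathway was described with lists of other p53 targets, p53 regulators, cell-cycle and senescence genes. Of 141 genes listed 138 were tested, and under PA over both ASOs 27 rose and 42 fell, beside 23.4% and 22% of all genes, with a median of -0.03. Of the 12 apoptosis targets 7 fell and 1 rose. Tnfrsf10b, a receptor of the death ligand TRAIL, had a log2 fold change of -0.90, Fas, another death receptor, of -0.79, and Apaf1, the scaffold of caspase activation, of -0.57, while Bid, which links death receptors to mitochondria, had 0.66. Tnfrsf10b ran from 11.9 to 25.9 CPM in Ctr BSA and from 5.90 to 16 CPM in Ctr PA. Among 16 arrest and growth targets 5 rose and 5 fell: the polo-like kinase genes Plk3 (0.56) and Plk2 (-0.67) moved in opposite directions, as did Cgref1 (0.56) and Gtse1 (-0.75), a p53-binding protein of G2. The 12 DNA repair targets split into 3 up and 4 down, with Rrm2b, a ribonucleotide reductase subunit, at 0.27, the replication clamp Pcna at 0.17 and Ercc5, an excision repair nuclease, at -0.24. Of 18 metabolic targets 4 rose and 6 fell, among them Sco2, which assembles cytochrome c oxidase (0.45), and Dram1, an autophagy gene (-1.05).

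**Figure D5:**
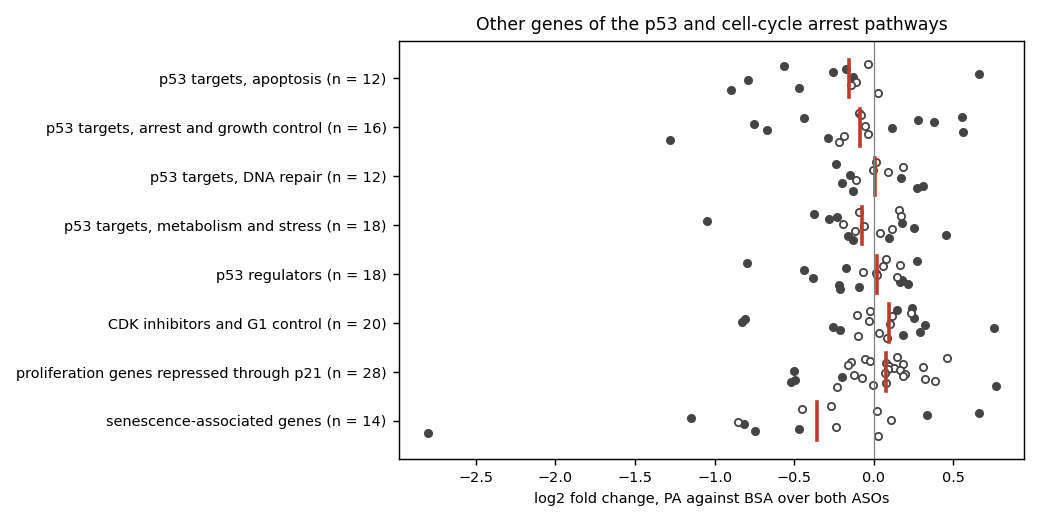
Log2 fold changes under PA over both ASOs for the tested genes of 8 lists, 1 point a gene, filled where the adjusted p was below 0.05, with a red line at the median of each list. Medians lie between -0.36 (senescence-associated genes) and 0.09 (CDK inhibitors and G1 control), and filled points lie on both sides of 0 in every list.

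Regulators of p53 itself were counted apart. The counts of the next 4 lists are under PA over both ASOs, where 22% of all genes fell and 23.4% rose. Of 18 tested genes 4 rose and 7 fell, with log2 fold changes of -0.44 for the acetyltransferase Ep300, -0.80 for the checkpoint kinase Chek1, -0.21 for Usp7, a deubiquitinase of p53 and Mdm2, and -0.38 for the phosphatase Ppm1d. The CDK inhibitor and G1 list had 7 of 20 genes higher and 4 lower: E2f1, which drives S-phase genes, was 0.75 higher, Ccnd1 0.24 and Cdk4 0.25, while Cdk6 had -0.81. Of its CDK inhibitors, Cdkn1c (-0.83) and Cdkn2d (-0.26) fell, Cdkn2c (0.32) rose, and Cdkn1b and Cdkn2b were not called. Cdkn1c was low, at 0.689 to 2.48 CPM in Ctr BSA. Of 28 proliferation genes that p21 is known to repress, 4 fell and 1 rose. Kif20a (-0.50), Mybl2 (-0.50) and Plk1 (-0.52, adjusted p = 0.0294) fell and Top2a (0.77) rose. Plk1 lost its call without any of 5 libraries, Ctr BSA 5 and 13, αGlu BSA 6 and 14 and Ctr PA 11. The senescence list had 5 of 14 genes lower and 2 higher. Igfbp7 had a log2 fold change of -0.81 and Lmnb1, a lamin, of -0.47, while Glb1, the lysosomal β-galactosidase, had 0.33.

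None of the 138 genes of these lists was called for αGlu against Ctr over both treatments, in BSA or in PA, by edgeR or by DESeq2. At an unadjusted p below 0.05 there were 1, 4 and 0 of them. The 1 over both treatments was Ddb2, a DNA damage-binding protein, at -0.19 (adjusted p = 0.847). Between batches 35 of the 138 genes were higher in batch 2 and 59 lower, beside 26.1% and 25.4% of all genes. Of the 28 proliferation genes 17 were higher and 3 lower in batch 2 (median 0.73), with Top2a at 1.61, whereas 12 of 16 arrest targets and 8 of 12 apoptosis targets were lower. Plk2 was at -1.03 and Dusp1, a phosphatase of MAP kinases, at -1.43. The batches also differed in the exocrine markers given above, and both differences cannot be told apart.

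The levels most like that of Cdkn1a over the 24 libraries, with the mean of each batch removed, were those of S100a6 (Pearson r = 0.931), Csrp1 (0.921), Rela (0.921), Actb (0.918) and Afap1 (0.918). For Mdm2 they were Map3k20 (0.879), Ist1 (0.876), Noct (0.873), Nup54 (0.872) and Csnk2a2 (0.868). These libraries share the PA groups, and the values are a description.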

How the data were processed

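The 24 mRNA libraries of dispersed mouse islet cells were analysed. The submitters' processing notes name the QIAGEN RNA-seq Analysis Portal 5.1 and GRCm38. The aligner, the annotation and the strand setting are not given in the sources used. Its deposited counts of reads on exons were tested, with empty cells read as 0. The deposited TPM and RPKM values served for levels between genes, and the deposited CPM, a scaled signal, for the scaling factors of the authors (0.840 to 1.04). One line named no gene and held 0% of the counts.

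Counts were scaled by TMM and genes filtered with filterByExpr. A quasi-likelihood model with a coefficient per group and for batch was fitted in edgeR 4.0.16 (R 4.3.3), with Benjamini-Hochberg adjustment over 15916 genes. CPM in the text are TMM-scaled. Standard errors were derived from the F statistic. Alternatives were DESeq2 1.42.0, other scalings and filters, no batch term, each batch alone, the compared groups alone, the rule of the study and omission of each library. The scripts were tested on simulated data. Levels of a gene have no interval other than the spread between libraries, and depth ran from 18214719 to 35001979 counts.

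The members and gene lists were chosen with earlier results of these data known. All members are named, and of each list the 4 genes of smallest p under PA over both ASOs and the 2 of smallest p for αGlu, of which not every one is printed. The CDK inhibitors of the G1 list are named as well. Likeness was Pearson's r of log2 CPM (prior count 2). Gene positions are from the GENCODE M21 annotation of GRCm38, and promoter windows from RefSeq GRCm38.p6. Reads without molecular identifiers are not independent molecules.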

Additional observations from a re-analysis of the deposited data

How the results depend on the processing

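Without a batch term the members called fell from 6 to 1 in Ctr cells, from 6 to 1 in αGlu cells and from 6 to 3 over both ASOs. Calls among all genes, in either direction, fell as well. They went from 4772 to 2312 in Ctr cells, from 4543 to 2271 in αGlu cells and from 7221 to 5032 over both ASOs. Batch 2 alone gave 1 member in Ctr and 2 in αGlu cells, beside 1833 and 1902 of all genes. Batch 1 alone gave 3 members in αGlu cells, beside 1642 of all genes. These fits had fewer samples. With the rule of the study 0 members were called in the 3 PA comparisons, 1 between the batches, and 4 in place of 69 list genes under PA over both ASOs, since that rule asks for a fold above 2. Ccng1 over both ASOs turned to 0.0152 in batch 2 alone, and the cause was not tested. With 1 library left out, the members called ran from 5 to 6 in Ctr cells, from 4 to 7 in αGlu cells, from 6 to 8 over both ASOs and from 9 to 9 between batches, and stayed from 0 to 0 for αGlu against Ctr, for both kinds of difference between responses and over both treatments. Without the Ctr BSA library 5, Eda2r in Ctr cells turned to 0.0148 (range -0.225 to 0.0148) and Ccng1 over both ASOs to 0.0122 (range -0.0498 to 0.0122). DESeq2 called Trp53inp1 in αGlu cells (adjusted p = 0.0443) and over both ASOs (0.0367), upper-quartile scaling over both ASOs (0.0432), and the compared groups alone in αGlu cells (0.00581). No scaling moved the median of all genes by over 0.1. For single genes, 551 values kept their call, 47 lost it, 4 gained one and 1 turned; with 1 library left out, 44 of 1632 changed. No paired analysis was possible because the labels number the libraries once through the series and do not say which of them share an animal, so p-values are unpaired. Depth limits Cdkn2a, with at most 16 counts in a library.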
